A study of Homo sapiens with 4 samples.

Results

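Among the cassette exons quantified in a human breast cancer cell line and in its lung-metastatic derivative, 619 exons were included almost always, yet left a countable trace of skipping in both lines or in 1 of them. MDA-LM2 is a highly lung-metastatic population derived from MDA-MB-231, an established line of triple-negative breast cancer with mesenchymal features, which is the parental line here. Both lines carried no transgene or edit named in the labels, grew in DMEM-based medium with serum and received no treatment. Total RNA was sequenced from 2 samples of each line. The labels do not say whether those came from separate cultures. The processed data hold 1 table of exon skipping per line, with no replicate column, so every interval below covers counting error only and every comparison is between 1 table of LM2 and 1 of the parental line, called libraries here. Whether a table joins both samples of its line is not stated.

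The values that chose the exons were the measurements themselves. An exon of 31 to 499 nt was taken when each library had at least 100 reads that told inclusion from skipping, when at least 5 reads over both libraries joined the flanking exons without it, and when the mean of the 2 inclusion levels was 0.95 or higher. The inclusion level is the posterior mean that MISO, a model of isoform use, gives for the share of transcripts that contain the exon, from 0 to 1. Each exon entered once, through the event with most informative reads. Of 33165 skipped exons in both tables, 8102 had the read minimum and 3755 of these also had at least 5 exclusion reads, and the 619 exons were 16.5% of the 3755. Another 3282 exons had the same length, depth and level but fewer than 5 exclusion reads, and 2884 had the same length, depth and exclusion reads but a lower level. High level, rare skipping and read depth are therefore properties of the selection and not findings.

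A cassette exon is kept or skipped according to how the spliceosome pairs the splice sites around it. Constitutive exons have splice sites and exonic enhancers, bound by SR proteins, that make pairing across the exon reliable, while hnRNP proteins often oppose inclusion. A missed exon yields a transcript that joins its neighbours. If the exon's length is not a multiple of the codon length, the reading frame shifts and the transcript often becomes a target of nonsense-mediated decay, which removes mRNAs with a premature stop codon.

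The sequences below are coding exons on which the results turn: those with most exclusion reads in these data and exons whose skipping was called higher or lower in LM2. They are written 5′ to 3′ on the strand of the gene, from transcripts of GENCODE release 29 on hg38, with the last 3 bases, which border the 5′ splice site and pair with U1 snRNA, in capitals.
HNRNPK exon 8 of 17 (72 nt, chr9:83973902-83973973, minus strand): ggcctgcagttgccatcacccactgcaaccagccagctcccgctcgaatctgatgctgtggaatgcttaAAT
SUMO2 exon 3 of 4 (72 nt, chr17:75174752-75174823, minus strand): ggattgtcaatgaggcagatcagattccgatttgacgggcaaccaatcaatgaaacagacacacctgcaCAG
NPM1 exon 9 of 12 (87 nt, chr5:171400839-171400925, plus strand): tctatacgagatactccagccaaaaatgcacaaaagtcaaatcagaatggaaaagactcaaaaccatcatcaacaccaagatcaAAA
RPL24 exon 5 of 6 (64 nt, chr3:101682429-101682492, minus strand): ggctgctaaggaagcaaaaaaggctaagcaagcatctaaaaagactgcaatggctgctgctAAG
TPT1 exon 2 of 6 (74 nt, chr13:45340712-45340785, minus strand): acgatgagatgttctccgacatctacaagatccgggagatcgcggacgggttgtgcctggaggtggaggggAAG
HNRNPDL exon 6 of 8 (171 nt, chr4:82426463-82426633, minus strand): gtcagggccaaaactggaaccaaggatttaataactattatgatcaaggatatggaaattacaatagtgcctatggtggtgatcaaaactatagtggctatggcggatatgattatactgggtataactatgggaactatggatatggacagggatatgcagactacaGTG
BROX exon 5 of 13 (96 nt, chr1:222722419-222722514, plus strand): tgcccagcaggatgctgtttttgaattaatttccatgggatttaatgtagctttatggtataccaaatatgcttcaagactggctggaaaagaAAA
BROX exon 12 of 13 (160 nt, chr1:222731357-222731516, plus strand): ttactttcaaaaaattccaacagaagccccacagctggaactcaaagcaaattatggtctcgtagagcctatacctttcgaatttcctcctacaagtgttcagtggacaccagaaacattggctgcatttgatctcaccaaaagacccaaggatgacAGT
CPD exon 13 of 21 (196 nt, chr17:30449553-30449748, plus strand): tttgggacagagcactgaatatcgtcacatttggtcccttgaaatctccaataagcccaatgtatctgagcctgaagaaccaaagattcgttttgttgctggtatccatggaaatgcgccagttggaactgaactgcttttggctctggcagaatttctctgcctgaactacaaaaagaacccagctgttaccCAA
VPS29 exon 3 of 4 (236 nt, chr12:110492996-110493231, minus strand): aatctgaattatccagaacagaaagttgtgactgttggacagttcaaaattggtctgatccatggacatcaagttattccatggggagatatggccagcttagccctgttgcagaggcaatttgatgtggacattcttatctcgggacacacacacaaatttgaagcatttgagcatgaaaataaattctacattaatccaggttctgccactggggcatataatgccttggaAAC
NAP1L1 exon 6 of 16 (81 nt, chr12:76059798-76059878, minus strand): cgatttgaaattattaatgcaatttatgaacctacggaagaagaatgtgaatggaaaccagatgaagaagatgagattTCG
RPS3 exon 2 of 7 (131 nt, chr11:75400694-75400824, plus strand): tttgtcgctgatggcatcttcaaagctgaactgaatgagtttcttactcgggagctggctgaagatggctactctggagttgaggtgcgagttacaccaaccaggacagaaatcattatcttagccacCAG
MRPL52 exon 4 of 5 (65 nt, chr14:22833418-22833482, plus strand): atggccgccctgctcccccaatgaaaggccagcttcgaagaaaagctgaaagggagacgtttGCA

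The last 3 bases of these exons varied. Over all nearly constitutive exons with a sequence (611 of 619), the last base was G in 78.1% and the last bases were AG in 54.5%. The same shares were 81.2% and 56.8% in the exons of the same level with fewer than 5 exclusion reads, and 77.3% and 55.3% in those of lower level. An exon ending in CAG, the match to U1 snRNA, was found in 19.3% of the nearly constitutive exons, in 22.7% of those with fewer than 5 exclusion reads and in 24.8% of those with a lower level. Exons are not independent replicates, and no test was made of these shares.

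The 619 exons were spread over 23 chromosomes. Exactly 566 lay inside a single gene, in 476 genes, and 53 lay where genes overlap on the same strand, so that their reads cannot be assigned to 1 gene. By the annotation, 532 were coding, 42 partly coding, 27 belonged to non-coding transcripts, 10 were 5′ untranslated and 8 matched no annotated exon exactly. Their median length was 118 nt (quartiles 84 and 161.5 nt). An annotated transcript already joined the flanking exons for 581 of them (93.9%). The 619 exons used 576 distinct skipping junctions, and 38 junctions were shared by 81 exons, such as the versions of an exon of SEPT7, and such exons share their exclusion reads.

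Across the series, the LM2 table listed 39981 events with 4701744 inclusion and 955034 exclusion reads, and the table of the parental line held 43626 events with 5529885 inclusion and 1101330 exclusion reads. The parental library was thus deeper, and over the nearly constitutive exons the median of informative reads was 517 in LM2 and 622 in the parental line. Reads that matched neither isoform made up 71.2% of the reads at these exons in LM2 and 71.6% in the parental line. Of the markers of mesenchymal-like lines, CD44 had 4348 informative reads at its best covered exon in LM2 and 6375 in the parental line, and ITGB1 had 2094 in LM2 and 3999 in the parental line. No skipped exon of VIM or KRT18 had 50 informative reads in each library. Of 14 markers of other cell types, 13 had no such exon, and MBP, the myelin basic protein gene, had 310 reads in LM2 and 469 in the parental line.

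Summed over all of these exons, the rate of skipping differed between the metastatic derivative and the parental line by less than the counting error. The 619 exons had 3897 exclusion and 624620 inclusion reads in LM2, against 4693 exclusion and 742454 inclusion reads in the parental line. Exclusion reads were 0.620% of informative reads in LM2 (exact 95% binomial interval 0.601 to 0.640) and 0.628% in the parental line (0.610 to 0.646). Per 1000 inclusion reads, that is 6.24 exclusion reads in LM2 and 6.32 in the parental line, and the ratio of LM2 to parental was 0.987 (exact 95% interval 0.946 to 1.03). For all 3755 compared exons together the ratio was 1.04 (1.03 to 1.04), from 574 exclusion reads per 1000 inclusion reads in LM2 and 553 in the parental line. The interval for the nearly constitutive exons includes 1.

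The middle of the distribution over single exons also lay close to equality. The median exon had 8.47 exclusion reads per 1000 inclusion reads in LM2 (quartiles 3.65 and 14.3, highest 54.2) and 8.83 in the parental line (quartiles 4.09 and 14.7, highest 63.8). The log2 ratio of skipping, LM2 over parental with 0.5 added to each count, had a median of -0.01 over the exons, with quartiles of -0.71 and 0.64, beside a median of -0.04 and quartiles of -0.57 and 0.55 for all compared exons. The estimate was above 0 for 305 exons and below 0 for 314. It was within 2-fold for 405 exons (65.4%), against 72.6% of all compared exons. Across the 592 exons with exclusion reads in both libraries, the rate in LM2 was correlated with the rate in the parental line. The Pearson correlation was 0.63 on the log scale and the Spearman correlation 0.59. The 27 exons with 0 exclusion reads in 1 library were left out of both. Among the 105 exons with at least 20 exclusion reads the Spearman correlation was 0.71. These correlations are across exons, which share the libraries, exon length and in part the junctions, and are given as descriptions. The rate is also tied to read depth, which the rule uses and which an exon shares between libraries. Exons under 5 exclusion reads per 1000 inclusion reads had a median of 2641 informative reads, and those at 20 or more had 655.5. The part of depth in these correlations was not tested.

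**Figure D1:**
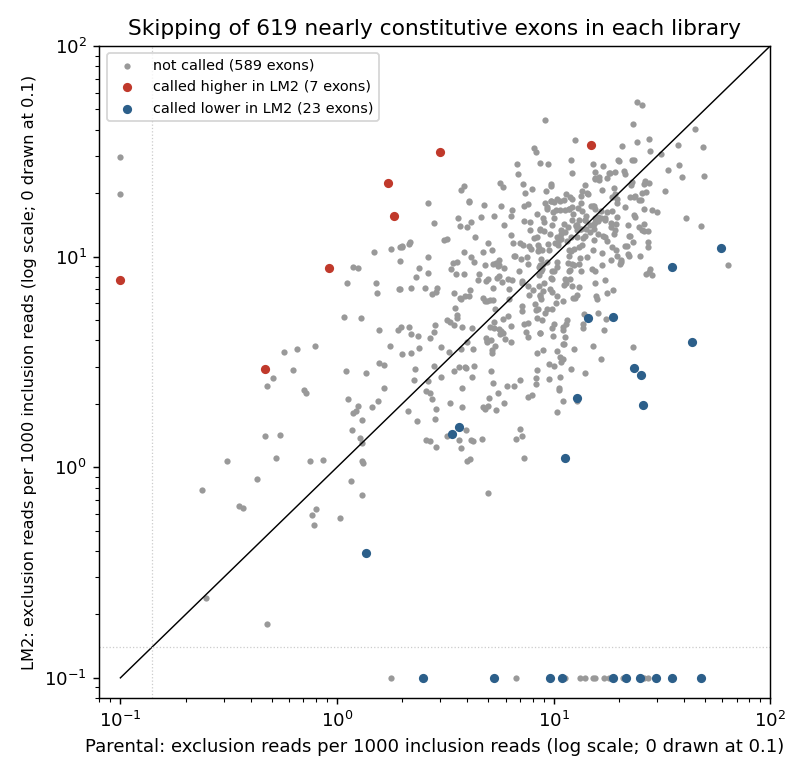
Each point is an exon, with exclusion reads per 1000 inclusion reads in the parental line on the x axis and in LM2 on the y axis, both on log scales, and a rate of 0 drawn at 0.1 beyond the dotted lines. The black line marks equal rates. Most points lie on both sides of it, the 7 called higher in LM2 (red) lie above and the 23 called lower (blue) below, 10 of them at 0 in LM2.

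The inclusion levels moved little. The level had a median of 0.98 in LM2 and 0.98 in the parental line, and a minimum of 0.92 in each. The difference in level, LM2 minus parental, ran from -0.07 to 0.07 with a median of 0, and it was 0.02 or less in size for 530 exons (85.6%). In 36 exons the LM2 level and in another 36 the parental level was under 0.95. The level counts all evidence that the model weighs, length included, so a rate of 22.9 exclusion reads per 1000 inclusion reads at HNRNPK stood beside a level of 0.95.

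Few reads stood behind most single exons. The median exon had 8 exclusion reads over both libraries (quartiles 6 and 14.5), 357 exons had 5 to 9, 157 had 10 to 19 and 105 had 20 or more. The 10 exons with most held 14.2% of all exclusion reads. The exact 95% interval of the ratio reached beyond 2-fold in both directions for 402 exons and lay within 2-fold for 8 (1.29%). A change of 2-fold was therefore not detectable at this depth for most of them, and an exon that was not called is not shown to be skipped alike in both libraries.

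An exon was called when its skipping ratio differed by at least 2-fold and the exact interval excluded 1. By that rule skipping was higher in LM2 for 7 exons (1.13%), where 3.54% of all 3755 compared exons were called higher, and lower in LM2 for 23 (3.72%), where 4.55% of all compared exons were called lower. Both shares were under the background. Since the calls need reads, the share was also taken among exons with similar numbers of exclusion reads. With 5 to 9 exclusion reads, 4.76% of the 357 nearly constitutive exons were called and 2.21% of the 271 others. With 10 to 19 it was 3.18% of 157 and 6.96% of 316, with 20 to 49 it was 8.79% of 91 and 18.2% of 313, and with 50 or more it was 0 of 14 and 8.45% of 2236. Of the 30 calls, 17 rested on fewer than 10 exclusion reads over both libraries.

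The calls were uneven in direction, and depth was uneven in the same direction. Exclusion reads were absent in LM2 for 24 of the 619 exons and absent in the parental line for 3. Of the 23 exons called lower, 10 had 0 exclusion reads in LM2. With 3 reads in place of 0 and the parental count taken as exact, the skipping of these was 1.72-fold to 2.99-fold lower in LM2. Their exact intervals, which cover error in both counts, had upper ends at ratios from 0.534 to 0.997. With the counts of 0 set to 3 for the fold only, 17 exons were still called lower and 7 higher. The exact intervals in that setting were still those of the observed counts of 0, so it changes only the fold part of the call. The part that the shallower LM2 library has in the direction of the calls was not tested.

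The authors' deposited table of the comparison also gives a Bayes factor, the weight of the evidence that the level differs between the lines over that for no difference. It reached 10 with a difference in level of at least 0.05 in 3 of the 619 exons, beside 4.42% of all compared exons. These were in PRKDC, MRPL52 and CPD. In the authors' deposited table the factor was under 1 for 606 exons (97.9%), against 89.0% of all compared exons. The rule that chose the exons by level limits how far that level can differ.

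**Figure D2:**
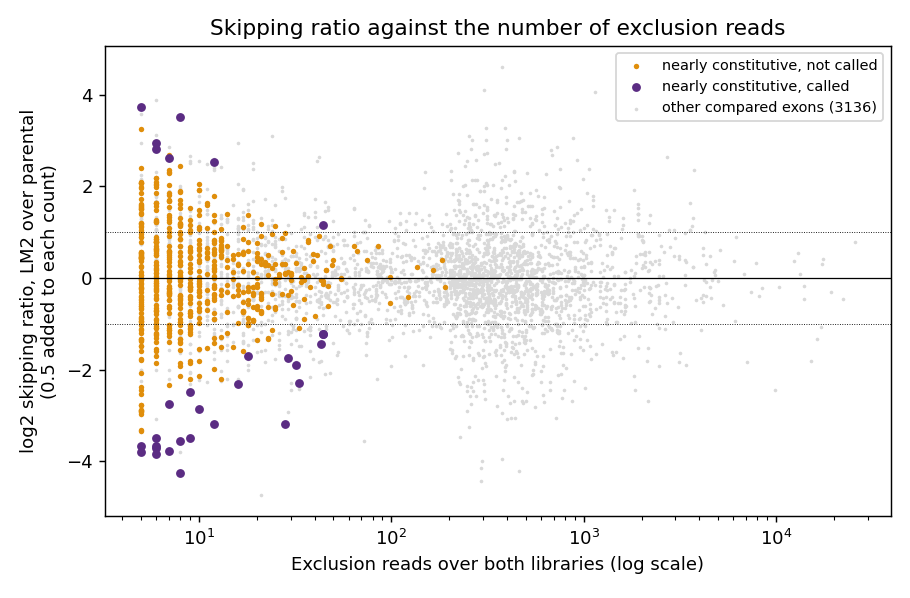
The x axis is the number of exclusion reads over both libraries on a log scale and the y axis the log2 skipping ratio, LM2 over parental with 0.5 added to each count; dotted lines mark 2-fold. Nearly constitutive exons (orange, called ones purple) have few exclusion reads and spread widely below 10 of them, while the exons with 100 or more lie within 2-fold; points with 0 exclusion reads in 1 library depend on the added 0.5.

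The exons with most exclusion reads were in abundant transcripts for RNA-binding, nucleolar, ribosomal and ubiquitin-like proteins, and none of these was called. HNRNPK encodes an RNA- and DNA-binding protein that prefers poly(C). Its 72-nt exon had 81 exclusion and 3534 inclusion reads in LM2, against 110 exclusion and 4180 inclusion reads in the parental line. That was 22.9 per 1000 in LM2 and 26.3 in the parental line, with a log2 ratio of -0.20 and an interval of the ratio from 0.643 to 1.18. Exon 6 of HNRNPDL, a relative of the AU-rich element binding protein HNRNPD, had 50 exclusion and 5309 inclusion reads in LM2 and 49 exclusion and 5252 inclusion reads in the parental line. Its rates, 9.42 per 1000 in LM2 and 9.33 in the parental line, differed by a log2 ratio of 0.01 (interval of the ratio 0.666 to 1.53). The 72-nt exon of HNRNPK and exon 6 of HNRNPDL thus each gave almost the same rate in the 2 libraries. Another nearly constitutive exon of HNRNPK, with its own junction, had a log2 ratio of -1.36 and was not called.

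RPL24 is a protein of the large ribosomal subunit. Its exon 5 had 105 exclusion and 10602 inclusion reads in LM2 and 78 exclusion and 10334 inclusion reads in the parental line, with a ratio of 1.31 (0.968 to 1.78). NPM1, the nucleolar histone chaperone nucleophosmin, had 68 exclusion reads in each library, beside 10878 inclusion reads in LM2 and 12895 in the parental line, which gives a log2 ratio of 0.25 (interval of the ratio 0.834 to 1.69). SUMO2, a ubiquitin-like modifier, had 82 exclusion reads in each library, beside 5494 inclusion reads in LM2 and 6238 in the parental line (log2 ratio 0.18, interval of the ratio 0.824 to 1.56). The ratio was a little above 1 in all of these and every interval included 1. TPT1, the translationally controlled tumour protein, leaned the other way, with 59 exclusion and 3183 inclusion reads in LM2, against 63 exclusion and 2529 inclusion reads in the parental line (log2 ratio -0.43, interval of the ratio 0.511 to 1.08). HNRNPK, RPL24, RPS3, NPM1, SUMO2 and TPT1 have processed pseudogenes, so their read counts are uncertain where the authors' alignment could split or misplace such reads.

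**Figure D3:**
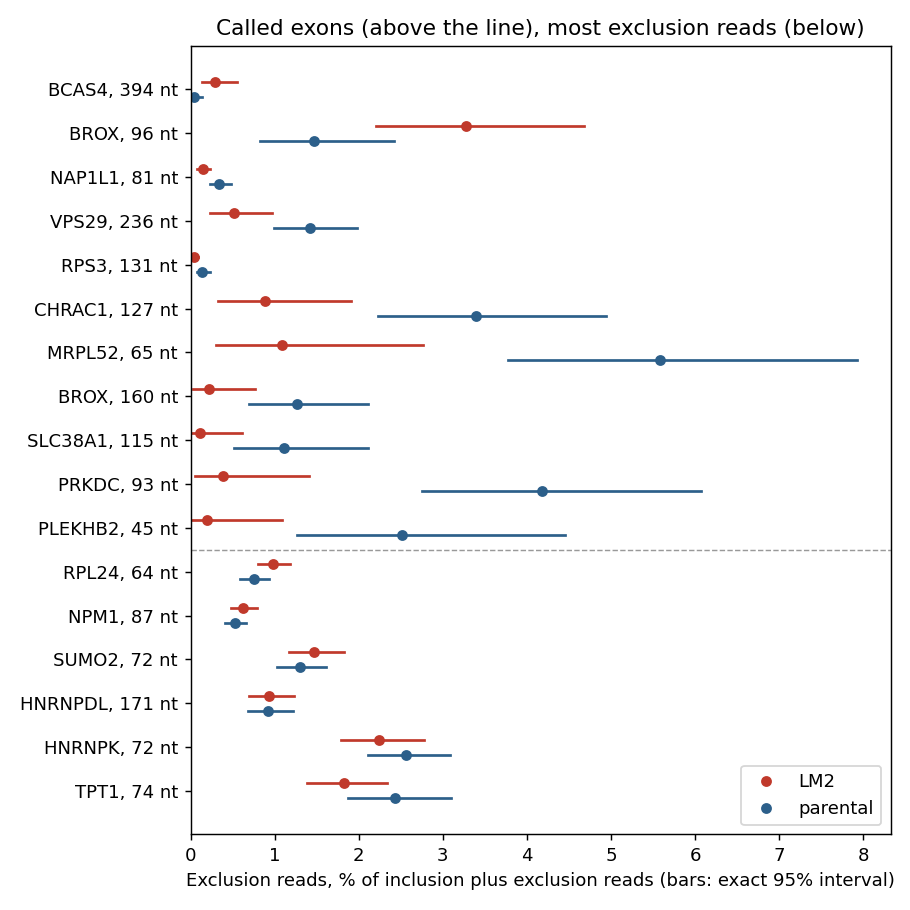
Exclusion reads as a percentage of inclusion plus exclusion reads for 17 exons, LM2 (red) above parental (blue) in each pair, with exact 95% binomial intervals for counting error. Above the dashed line are 11 called exons that lie in 1 gene and have at least 10 exclusion reads, 1 per gene and direction, with another such exon not shown, and below it the 6 exons with most exclusion reads, whose intervals overlap between the libraries.

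Skipping was called higher in LM2 with at least 10 exclusion reads for 2 exons. BROX encodes a Bro1-domain protein that binds the ESCRT-III machinery. The 96-nt exon 5 of BROX had 29 exclusion and 856 inclusion reads in LM2, against 15 exclusion and 1005 inclusion reads in the parental line. Its rate was 33.9 per 1000 in LM2 and 14.9 in the parental line, a ratio of 2.23 (1.17 to 4.59), and its level was 0.94 in LM2 and 0.97 in the parental line. A 394-nt exon of non-coding transcripts of BCAS4 (chr20:50840537-50840930) had 9 exclusion and 3071 inclusion reads in LM2 and 3 exclusion and 6478 inclusion reads in the parental line, a ratio of 5.73 (1.58 to 36.4). Here the exclusion reads were few and the inclusion reads many in both libraries.

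The other exons called higher had fewer than 10 exclusion reads. The 196-nt exon 13 of CPD, which encodes carboxypeptidase D of the trans-Golgi network, had 6 exclusion and 268 inclusion reads in LM2, against 2 exclusion and 1168 inclusion reads in the parental line. The ratio was 11.3 (2.32 to 133), and the inclusion reads, scaled to the library, were themselves lower in LM2 by a log2 difference of -1.89. In the authors' deposited table its level was 0.92 in LM2 and 0.99 in the parental line, with a Bayes factor of 10.2. TDP1, an enzyme that releases topoisomerase I from DNA, had 5 exclusion and 160 inclusion reads in LM2 and 1 exclusion and 336 inclusion reads in the parental line. RMC1, a subunit of the guanine nucleotide exchange factor for Rab7, had 6 exclusion and 385 inclusion reads in LM2 and 1 exclusion and 546 inclusion reads in the parental line. In both, a single exclusion read in the parental line set the ratio. TAF15, a FET-family RNA-binding protein whose exon lies where AC015849.4 overlaps, had 5 exclusion and 564 inclusion reads in LM2 and 1 exclusion and 1084 inclusion reads in the parental line. The exon shared by SENP3, a SUMO protease, and the readthrough SENP3-EIF4A1 had 5 exclusion and 646 inclusion reads in LM2. In the parental line it had 0 exclusion and 776 inclusion reads. With 3 reads in place of that 0, its skipping was 2.0-fold higher in LM2, and its exact interval began at a ratio of 1.1.

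More exons were called lower in LM2, and the one with the highest Bayes factor in the authors' deposited table was in PRKDC. PRKDC encodes the catalytic subunit of DNA-dependent protein kinase, which acts in end joining of DNA breaks. Its 93-nt exon 80 of 86 (chr8:47782162-47782254) had 2 exclusion and 509 inclusion reads in LM2, against 26 exclusion and 596 inclusion reads in the parental line. The rate was 3.93 per 1000 in LM2 and 43.6 in the parental line, with a log2 ratio of -3.18 (interval of the ratio 0.0103 to 0.363). In the authors' deposited table its level was 0.99 in LM2 and 0.92 in the parental line, with a Bayes factor of 4403, and the deposited intervals did not overlap (0.98 to 1.00 in LM2, 0.89 to 0.95 in the parental line).

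A mitochondrial and a chromatin gene followed. MRPL52 is a protein of the large mitochondrial ribosomal subunit. Its 65-nt exon had 4 exclusion and 364 inclusion reads in LM2 and 29 exclusion and 490 inclusion reads in the parental line, or 11.0 per 1000 in LM2 and 59.2 in the parental line (log2 ratio -2.28, interval of the ratio 0.0471 to 0.536). The authors' deposited table gave levels of 0.99 in LM2 and 0.93 in the parental line and a Bayes factor of 1938. CHRAC1, a histone-fold subunit of the chromatin accessibility complex, had 6 exclusion and 676 inclusion reads in LM2 at its 127-nt exon 2 of 3 (chr8:140514369-140514495), against 26 exclusion and 740 inclusion reads in the parental line (log2 ratio -1.90, interval of the ratio 0.0846 to 0.633). The inclusion reads of PRKDC, MRPL52 and CHRAC1, scaled to the library, differed by log2 values of 0.01, -0.19 and 0.10, so the exclusion reads and not the inclusion reads set these ratios.

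The retromer and a histone chaperone were also represented. VPS29, a subunit of the retromer that returns receptors from endosomes, had 9 exclusion and 1752 inclusion reads in LM2 and 34 exclusion and 2355 inclusion reads in the parental line (5.14 per 1000 in LM2 and 14.4 in the parental line, interval of the ratio 0.150 to 0.760). NAP1L1, a histone chaperone, had 15 exclusion and 10434 inclusion reads in LM2 and 29 exclusion and 8526 inclusion reads in the parental line at its 81-nt exon (1.44 per 1000 in LM2 and 3.40 in the parental line, interval of the ratio 0.210 to 0.815). A 102-nt version of the NAP1L1 exon with another 5′ splice site shares the same skipping junction and reads, and was called lower too, so the pair is 1 observation.

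Further exons called lower with at least 10 exclusion reads were in RPS3, SLC38A1 and PLEKHB2. RPS3, a protein of the small ribosomal subunit, had 5 exclusion and 12782 inclusion reads in LM2 and 13 exclusion and 9595 inclusion reads in the parental line, or 0.391 per 1000 in LM2 and 1.35 in the parental line. SLC38A1, a sodium-coupled transporter of neutral amino acids, had 1 exclusion and 909 inclusion reads in LM2 and 9 exclusion and 798 inclusion reads in the parental line at a 115-nt exon of its 5′ untranslated region (chr12:46243200-46243314). PLEKHB2, a pleckstrin homology domain protein of endosomes, had 1 exclusion and 507 inclusion reads in LM2 and 11 exclusion and 427 inclusion reads in the parental line at a partly coding 45-nt exon (chr2:131120934-131120978). The rate of PLEKHB2 was 1.97 per 1000 in LM2 and 25.8 in the parental line.

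BROX held a called exon in each direction. While skipping of its exon 5 was higher in LM2, its 160-nt exon 12 of 13 had 2 exclusion and 935 inclusion reads in LM2, against 14 exclusion and 1097 inclusion reads in the parental line. The rate of exon 12 was 2.14 per 1000 in LM2 and 12.8 in the parental line (log2 ratio -2.31, interval of the ratio 0.0185 to 0.733), and the level was 0.99 in LM2 and 0.98 in the parental line. Inclusion reads of both exons, scaled to the library, differed by a log2 value of 0.00. Exon 5 has a length divisible by 3 and exon 12 does not.

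In 10 exons called lower, no exclusion read was seen in LM2 and 5 to 9 were seen in the parental line. MRPS35, of the small mitochondrial ribosomal subunit, had 0 exclusion and 187 inclusion reads in LM2 at a 41-nt exon. In the parental line this exon had 8 exclusion and 167 inclusion reads. With 3 reads in place of 0, its skipping was 2.99-fold lower in LM2, and the exact interval of the ratio ended at 0.534. PTK7, a receptor-like pseudokinase of Wnt signalling, had 0 exclusion and 604 inclusion reads in LM2, against 6 exclusion and 549 inclusion reads in the parental line. In the same way its skipping was 2.20-fold lower in LM2 (upper interval end 0.776). PIGT, a subunit of the transamidase that attaches GPI anchors, had 0 exclusion and 298 inclusion reads in LM2. In the parental line it had 7 exclusion and 326 inclusion reads, so that skipping was 2.13-fold lower in LM2 (upper interval end 0.767). Through the event of the PIGT exon with most exclusion reads, its log2 ratio was 0.10, so the lower skipping holds for 1 junction only. The folds of MRPS35, PTK7 and PIGT rest on single-digit counts in the parental line, which were taken as exact. METTL5, a methyltransferase of ribosomal RNA, had 2.09-fold lower skipping by that measure (upper interval end 0.87). For ISY1, a spliceosome-associated protein whose exon overlaps the readthrough ISY1-RAB43, it was 2.00-fold lower (upper interval end 0.855). For FAM172A, RPS29 of the small ribosomal subunit, the Mediator subunit MED21, RBM7 of the nuclear exosome targeting complex, which overlaps AP002373.1, and VPS51 of the GARP tethering complex, this fold was under 2, from 1.94 down to 1.72. Their upper interval ends lay between 0.865 (MED21) and 0.997 (VPS51). Of the calls with 1 exclusion read in LM2, the assembly factor for iron-sulphur clusters NUBP1 had 8 in the parental line and the arginine methyltransferase PRMT3 had 6.

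Some genes held several of these exons. Of the 476 genes, 402 had 1 such exon and 74 had more. IL6ST, which encodes the signalling receptor gp130 of the IL-6 family, had 4, each with a skipping junction of its own. Its exons had 4, 0, 4 and 3 exclusion reads in LM2, from exon 11 to exon 4 of the transcript, and 7, 5, 2 and 7 in the parental line, and none was called. SEPT7, a septin of the cytoskeleton, had 4 overlapping versions of an exon with 1 shared junction, hence 7 exclusion reads in LM2 and 10 in the parental line for each, with log2 ratios from -0.75 to -0.72. LDHA, lactate dehydrogenase A, had 3 exons with rates under 2 per 1000 in both libraries. Its 118-nt exon had 12 exclusion and 11219 inclusion reads in LM2, against 18 exclusion and 13731 inclusion reads in the parental line (log2 ratio -0.27, interval of the ratio 0.358 to 1.79).

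Grouped by function, the exons gave few calls in any list, where 4.85% of all nearly constitutive exons were called. The hnRNPs and other splicing regulators had 21 such exons of 156 with the read minimum (13.5%), oxidative phosphorylation 14 of 97 (14.4%) and proteasome and ubiquitin genes 22 of 194 (11.3%), where the share over all exons with the read minimum was 7.64%. Chromatin and transcription genes had 4 of 165 (2.42%). The share is set by the rule, which needs both level and reads, and is given as a description. Among the exons of these lists, 1 was called higher, TAF15, and 3 were called lower, VPS29 in membrane traffic and RPS3 and RPS29 among ribosomal proteins.

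In the splicing machinery's own transcripts, no exon of the core was called, where 4.85% of all nearly constitutive exons were. With so few core exons, the lack of a call does not set them apart. Core spliceosome and snRNP genes had 6 exons with 51 exclusion and 8316 inclusion reads in LM2, against 65 exclusion and 8964 inclusion reads in the parental line, and a median log2 ratio of -0.28. EFTUD2, the GTPase of the U5 snRNP, had 14 exclusion and 1635 inclusion reads in LM2 and 24 exclusion and 2398 inclusion reads in the parental line. SNRPC, the C protein of the U1 snRNP, had 10 exclusion and 2486 inclusion reads in LM2 and 11 exclusion and 2138 inclusion reads in the parental line. SNRPD3, a core protein of the snRNPs, had 11 exclusion and 1445 inclusion reads in LM2 and 9 exclusion and 1551 inclusion reads in the parental line, a log2 ratio of 0.38, where those of EFTUD2 and SNRPC were -0.20 and -0.35. All 3 intervals included 1. SR proteins and splicing kinases had 4 exons in 3 genes with a median log2 ratio of -0.41. TRA2B, an SR-like activator of splicing, had 13 exclusion reads in each library, beside 874 inclusion reads in LM2 and 931 in the parental line. SRSF10 had 7 exclusion reads in LM2 and 12 in the parental line, counted in 51-nt and 54-nt versions of 1 exon. The 21 exons of hnRNPs and other regulators had 8.73 exclusion reads per 1000 inclusion reads in LM2 and 9.55 in the parental line, with a median log2 ratio of -0.14.

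The highest median log2 ratio among the lists was 0.60, over 22 exons in 14 proteasome and ubiquitin genes. Next came 0.56 over 9 exons in 8 genes of translation factors and 0.45 over 8 exons in 7 genes of ribosomal proteins. Exons of 1 gene can share a junction and its exclusion reads, so the exons are not as many separate values. The ribosomal proteins had 2.71 exclusion reads per 1000 inclusion reads in LM2 and 1.94 in the parental line, although both calls among them were lower. RPL24 gave 105 of their 143 exclusion reads in LM2 and 78 of 121 in the parental line. Their median rate leaned the other way, at 0.922 per 1000 in LM2 and 1.05 in the parental line. Of the 8 exons, 2 were in RPL30 and share 1 junction, with log2 ratios of 1.57 and 1.63. EIF4G2, an initiation factor related to eIF4G, had 18 exclusion and 5753 inclusion reads in LM2 and 10 exclusion and 6418 inclusion reads in the parental line (interval of the ratio 0.878 to 4.87). EIF3K, of the eIF3 complex, had 20 exclusion and 1486 inclusion reads in LM2 and 24 exclusion and 1708 inclusion reads in the parental line. EIF2S2, the beta subunit of eIF2, had 13 exclusion and 1482 inclusion reads in LM2 and 12 exclusion and 1357 inclusion reads in the parental line. The rates of EIF3K and EIF2S2 were close to equal. The ubiquitin list takes in UBE2V1, a ubiquitin-conjugating enzyme variant, whose 149-nt and 140-nt versions share 24 exclusion reads in LM2 and 13 in the parental line and overlap the readthrough TMEM189-UBE2V1.

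The list of oxidative phosphorylation had 14 exons with 7.80 exclusion reads per 1000 inclusion reads in LM2 and 6.78 in the parental line and a median log2 ratio of -0.12, and its median and its sum thus lean to different sides. SDHA, the flavoprotein of succinate dehydrogenase, had 21 exclusion reads in each library, beside 1323 inclusion reads in LM2 and 2503 in the parental line, and the interval of its ratio reached from 0.979 to 3.65. UQCRH, of respiratory complex III, had 28 exclusion and 1699 inclusion reads in LM2 and 27 exclusion and 1633 inclusion reads in the parental line. ATP5MF, a subunit of ATP synthase whose locus overlaps PTCD1, had 29 exclusion and 1146 inclusion reads in LM2 and 19 exclusion and 1224 inclusion reads in the parental line. None of the 14 was called, which at 4.85% over all nearly constitutive exons does not set the list apart.

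Genes of membrane traffic and of adhesion and cytoskeleton held 18 and 17 exons. Traffic genes had 7.12 exclusion reads per 1000 inclusion reads in LM2 and 9.67 in the parental line, with a median log2 ratio of -0.27. SNX3, a sorting nexin that works with the retromer, had 16 exclusion and 1138 inclusion reads in LM2 and 31 exclusion and 1411 inclusion reads in the parental line (log2 ratio -0.62, interval of the ratio 0.325 to 1.21). VPS26A, another retromer subunit, had 14 exclusion and 567 inclusion reads in LM2 and 21 exclusion and 980 inclusion reads in the parental line at its 76-nt exon. The log2 ratio of that exon was 0.22, and another VPS26A exon with its own junction had 1.60 and was not called. The point estimates of these retromer genes thus lay on different sides of 0. Adhesion and cytoskeleton genes had 2.46 exclusion reads per 1000 inclusion reads in LM2 and 2.05 in the parental line, with a median log2 ratio of 0.16. In that list, CTNND1, the p120 catenin that binds cadherins, had 7 exclusion and 705 inclusion reads in LM2 and 11 exclusion and 772 inclusion reads in the parental line. RDX, the ERM protein radixin, had 5 exclusion and 817 inclusion reads in LM2 and 16 exclusion and 1452 inclusion reads in the parental line. PTK2, the focal adhesion kinase, had 9 exclusion and 1055 inclusion reads in LM2 and 10 exclusion and 1020 inclusion reads in the parental line at its 138-nt exon. The log2 ratio of that exon was -0.19, and another PTK2 exon with its own junction had 1.61. All 17 adhesion exons were without a call, and with 4.85% called over all nearly constitutive exons this does not set them apart. The 14 markers of other cell types and the 4 markers of mesenchymal-like lines had no nearly constitutive exon.

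Among chromatin genes, PBRM1, a subunit of the PBAF remodelling complex, had 2 exclusion and 217 inclusion reads in LM2 and 10 exclusion and 494 inclusion reads in the parental line (interval of the ratio 0.0482 to 2.16). HDAC3, a histone deacetylase, had 4 exclusion and 344 inclusion reads in LM2 and 5 exclusion and 492 inclusion reads in the parental line. KMT2A, a histone H3 lysine methyltransferase whose exon overlaps AP001267.5, had 4 exclusion and 576 inclusion reads in LM2 and 3 exclusion and 727 inclusion reads in the parental line. These counts are too small to show a difference of 2-fold.

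Lengths that keep the reading frame were less common among these exons than among exons that are skipped more. Of the 532 coding exons, 245 had a length divisible by 3, which is 46.1% (exact 95% binomial interval 41.8 to 50.4). Of coding exons with the same read and exclusion minimum but a lower level, 770 of 1170 were divisible by 3, which is 65.8% (63.0 to 68.5). Of coding exons of the same level with fewer than 5 exclusion reads, it was 1171 of 2759, or 42.4% (40.6 to 44.3). The interval of the nearly constitutive exons thus overlapped that of the exons almost without exclusion reads and lay apart from that of the lower level. Exons are not independent, and the intervals cover counting only.

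Within the nearly constitutive exons the share followed no clear order with the rate of skipping. It was 48.2% (39.7 to 56.8) under 5 exclusion reads per 1000 inclusion reads, 49.0% (41.0 to 57.1) from 5 to 10, 43.9% (36.5 to 51.5) from 10 to 20 and 38.9% (25.9 to 53.1) at 20 or more. The ranges of rate were chosen after the data were seen, and all of the intervals overlap. Sorted by exclusion reads, which also follow a transcript's abundance, it was 40.8% with 5 to 9 reads and 55.7% with 20 or more. The exons with rates of 20 or more per 1000 were shorter, with a median of 85 nt, than those under 5 per 1000, with a median of 141 nt. A longer exon offers more positions for inclusion reads, so the rate itself depends on length.

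**Figure D4:**
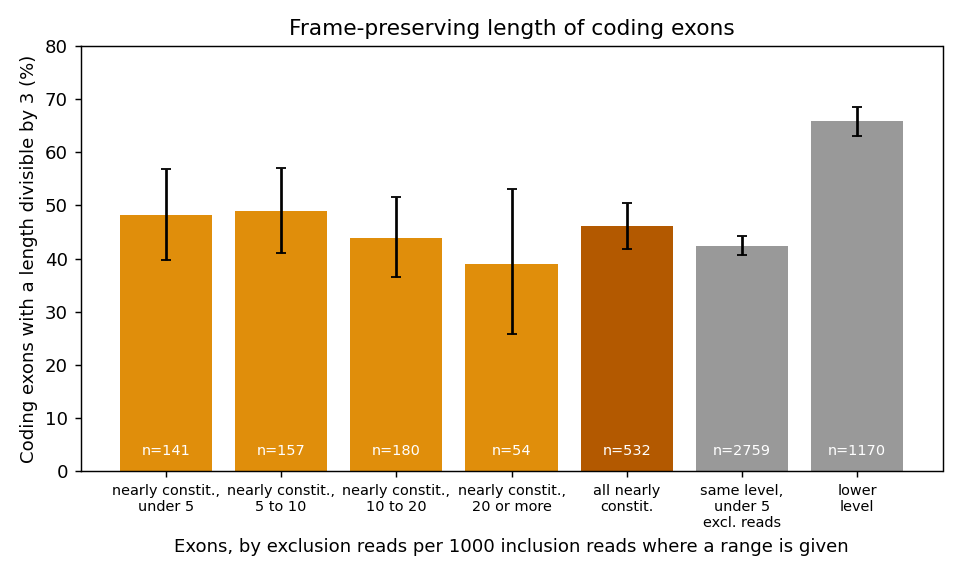
Percentage of coding exons with a length divisible by 3, with exact 95% binomial intervals and the number of coding exons in each bar. The nearly constitutive exons (orange by range of skipping rate, brown together) sit between 38.9% and 49.0%, below the 65.8% of the exons with a lower level (grey, right).

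Skipping in the LM2 and parental libraries was about equal for both frame classes. Exons divisible by 3 had a summed ratio of 0.991 (0.929 to 1.06), with 2 called higher and 5 called lower among 245. Exons not divisible by 3 had a summed ratio of 0.963 (0.899 to 1.03), with 4 called higher and 15 called lower among 287. The median rate was 8.50 per 1000 in LM2 and 8.83 in the parental line for the divisible class, and 7.79 in LM2 and 8.65 in the parental line for the other. In the annotation, a transcript that skips the exon was marked as a target of nonsense-mediated decay for 19 divisible exons (7.76%) and for 112 of the others (39.0%). A protein-coding transcript that skips it was annotated for 214 divisible exons (87.3%) and for 134 of the others (46.7%).

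In coding share, GC content and annotated skipping, the exons lay closer to those almost without exclusion reads than to those of lower level. Coding exons made up 85.9% of the nearly constitutive exons, 84.1% of those of the same level with fewer than 5 exclusion reads and 40.6% of those of lower level. The median GC content of the exon was 45.4%, against 46.1% with fewer than 5 exclusion reads and 47.7% at a lower level. A protein-coding transcript that skips the exon was annotated for 65.1%, against 54.3% with fewer than 5 exclusion reads and 88.4% at a lower level. The introns on either side were longer than in both other sets, with medians of 2967 nt before and 2376 nt after the exon. They were 2380 and 1975 nt for the exons with fewer than 5 exclusion reads and 1950.5 and 2008.5 nt for those of lower level. Among the nearly constitutive exons, the medians were 3178 and 2456 nt with 5 to 9 exclusion reads. With 20 or more they were 2171 and 2147 nt, so there the intron before was not longer than in the set with fewer than 5. Read depth differed between the sets in the same comparison, with a median of 1141 informative reads over both libraries for the nearly constitutive exons and 591.5 for those with fewer than 5 exclusion reads, and its part in these differences was not tested.

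The exons next to each limit of the rule, just inside and just outside, are given as examples. For exclusion reads 108 exons tied inside and 152 outside, and for the mean level 46 and 51. At the read minimum the log2 ratio was -0.48 inside (ZFYVE28, interval of the ratio 0.0604 to 3.57). Outside it was -2.46 (TANC2, interval of the ratio 0 to 2.23). These intervals overlap, so no difference between the 2 exons is shown. The HNRNPK exon stood at a mean level of 0.95, and the 111-nt exon of ANLN, the actin-binding protein anillin, at 0.95 in LM2 and 0.94 in the parental line lay just outside, with 52 exclusion and 3133 inclusion reads in LM2 and 64 exclusion and 2809 inclusion reads in the parental line. PTTG1IP had 2 exclusion reads in LM2 and 3 in the parental line and was taken, while RPL12, with 2 in LM2 and 2 in the parental line, was not. ZFYVE28 had 100 informative reads in LM2 and was taken, and TANC2 had 99 inclusion reads and no exclusion read there and was not. By length, the shortest and longest exons taken were in FAM204A (31 nt) and CAMLG (461 nt), and those next to the limits outside were in MXI1 (30 nt) and RMND1 (518 nt).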

How the data were processed

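Total RNA was sequenced with ScriptSeq v2 libraries, per the labels' protocols, and aligned with STAR 2.7 to hg38, per the submitters' processing notes. Per the file headers, the authors quantified skipped exons with MISO. The sources used here do not name its version or settings, what its interval covers or how the 2 samples of a line were joined. Per the file headers, the deposited inclusion level is a fraction from 0 to 1, and the deposited read classes are counts per event of reads that fit inclusion, exclusion, both or neither. In the authors' deposited comparison table the difference is a score (LM2 minus parental level) and the Bayes factor is a ratio.

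From these, exclusion per inclusion read was compared between the libraries, with 0.5 added to each count for the ratio. Exact conditional 95% intervals of the odds ratio came from Fisher's test in R 4.3.3, tables from pandas 2.3.3 and binomial intervals from scipy 1.17.1. An exon was called at a 2-fold ratio whose interval excluded 1, and the background was 3755 exons of any length and level, each with 100 or more informative reads in both libraries and 5 or more exclusion reads over both. Fisher's p-values, adjusted by Benjamini and Hochberg over the 3755, were an alternative and compare reads of the libraries, not the lines. No count model across replicates could be fitted. PCR reads are not independent molecules. The calling rule was also run on simulated counts with counting error only, at the depths of all compared exons. Its outcome is not reported here, and it cannot speak to variation between cultures.

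Exons and genes were matched to GENCODE release 29 by exact hg38 coordinates and strand. No genome was used, so intron and splice site sequence beyond the exon and splice site scores were not analysed. The members and lists were chosen with earlier results of these data known. Named were called exons with at least 10 exclusion reads inside exactly 1 gene, 1 per gene and direction and up to 10 per direction, the 6 exons inside exactly 1 gene with most exclusion reads, up to 3 exons per list with called ones first, and the exons next to each limit of the rule. The other called exons, and the exons of IL6ST, SEPT7 and LDHA, were named after their values were seen. Of the called exons that this rule names, 1 is not reported here.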

Additional observations from a re-analysis of the deposited data

How the results depend on the processing

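Leaving out a replicate was not possible, since each table holds 1 column for a line. No paired analysis was possible because the columns carry no replicate number. The summed skipping ratio stayed between 0.953 and 1.02 and the median log2 ratio between -0.03 and 0.02 over the alternatives run. The number of exons was 1020 with at least 3 exclusion reads, 262 with at least 10, 955 at a mean level of at least 0.9 and 265 at 0.98. The calls were 2 higher and 11 lower with at least 10 exclusion reads, 14 and 37 at a mean level of 0.9, 3 and 10 at 0.98, 1 and 4 with the adjusted Fisher test, and, chosen after seeing the data, 1 and 7 with at least 20 exclusion reads. The adjusted Fisher test kept CPD as higher and PRKDC, MRPL52, CHRAC1 and PLEKHB2 as lower. At an unadjusted Fisher p under 0.05 there were 12 higher and 29 lower. Calls by Bayes factor were 11 at a mean level of 0.9, and 0 at 0.98, with each level at 0.95 or more, or with a difference of at least 0.1. The settings of reads and level changed which exons were kept, and those of the Fisher test and of the difference changed the call on the same 619 exons. Of 58 exons that the naming rule or a call picked, the 128-nt exon of PIGT had a log2 ratio of 0.10 when the event with most exclusion reads stood for it, and the other 57 kept their direction. With odds from the deposited levels, which are given to 2 decimals, the log2 ratio was 1.01 for RPL24, 1.01 for SUMO2 and -1.05 for TPT1, in the same direction as from reads but outside the interval from reads. The other 55 stayed within it. The number of exclusion reads, at a median of 8 an exon, limits every single exon's value.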
